A study of Mus musculus with 3 samples.

Results

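The glycolysis enzymes Hk1, Hk2, Gpi1, Pfkl, Pfkp, Aldoa, Pgk1, Pgam1 and Ldha, together with the pyruvate dehydrogenase kinase Pdk1, are 10 of the 27975 gene names on the array. They were read by every non-control probe whose gene name in the scanner files equals one of these symbols, 22 probes on 40 spots of each array. RNA of whole ovaries of C57Bl/6J mice was compared between a conditional knockout (cKO) and a control. The cKO carries Bmal1fx/fx and a Cre driven by the sf-1 promoter, and the control Bmal1fx/fx alone, by the design text and the genotype labels; the controls' source names read Bmal1fxwt, and that difference in the labels could not be settled. By the genotype labels both groups share the floxed alleles. All females were 10 weeks old, fed ad libitum under 12 hours of light and 12 of dark, and killed at Zeitgeber time (ZT) 12, 3.5 days after copulation. On each of 3 arrays a pool of 3 cKO animals, labelled with cy3, was hybridised against a pool of 3 control animals, labelled with Cy5, so each genotype was measured as 3 pools of 9 animals in all. The series title ties the disruption of BMAL1 to female infertility; the ratios below ask how transcripts for glucose breakdown compare in such ovaries.

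Glycolysis turns glucose into pyruvate. Hexokinases trap glucose in the cell, phosphofructokinase commits it to the pathway, the enzymes of the later steps recover ATP, and lactate dehydrogenase converts pyruvate to lactate. PDK1 phosphorylates and switches off pyruvate dehydrogenase, which keeps pyruvate out of the mitochondrial citric acid cycle. In the ovary, granulosa cells pass pyruvate and lactate to the oocyte, and many of these genes are textbook targets of the hypoxia-inducible factors. BMAL1 with its partner CLOCK binds the E-box, CACGTG, whose letters contain ACGTG, a form of the core of the hypoxia response element. SF-1, the product of Nr5a1, marks the steroid-producing and supporting cells of the gonad, so cells of the ovary that do not use its promoter keep their floxed alleles intact.

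Because several genes were read by probes that gave unlike values, the first 30 of the 60 bases of the probes of Hk1, Pfkp, Ldha and Pdk1 that passed the filter on dim probes are shown, 5′ to 3′ as in the deposited files and in lower case throughout.
Hk1 probe A_52_P102773: ggaaaacatcttgtctccatcttgctagga
Hk1 probe A_52_P674530: atcatgcaccaaacagtgaaggaactgtca
Hk1 probe A_51_P249024: gcatggccgccgtggtgcaaaagatccgag
Hk1 probe A_52_P479599: gacatcagaacagacttcgacaagtggtgg
Pfkp probe A_51_P378856: caaactgaaggggtcccagggcacagggaa
Pfkp probe A_52_P223083: cgaaagatccaaggcaaacaaaacatccaa
Pfkp probe A_52_P572045: cttcatggtctcagaatttccttcagagtt
Ldha probe A_51_P364140: tatatgtgtctgtagtgtgcattgcaatat
Ldha probe A_51_P364146: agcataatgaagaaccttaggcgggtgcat
Pdk1 probe A_51_P406429: agccaaatcatgtgacatggcacaaaatag
Pdk1 probe A_52_P277654: cacaatcctggcattcttaaatgactgtat
The probes of each of these 4 genes share no run of more than 8 bases, so they bind different stretches of sequence. The Aldoa probes share a run of 27 bases and the Pgk1 probes a run of 38, so those pairs read stretches that overlap in part.

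The promoters of Ldha, Pgk1 and Hk2, the 3 members with more than 1 match in the 250 bases before a RefSeq start, are shown because BMAL1 acts through the E-box. Sequences are from RefSeq with the build GRCm38.p6, printed 5′ to 3′ on the gene's strand; capitals mark CACGTG and the core ACGTG or its reverse complement CACGT, so every E-box also holds the core on each strand.
Ldha promoter, chr7:46845554-46845803, plus strand: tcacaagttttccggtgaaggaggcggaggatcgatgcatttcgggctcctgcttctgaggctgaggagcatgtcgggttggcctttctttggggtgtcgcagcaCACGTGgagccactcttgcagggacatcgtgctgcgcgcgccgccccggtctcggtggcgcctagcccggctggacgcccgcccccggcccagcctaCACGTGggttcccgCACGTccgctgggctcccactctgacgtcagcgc
Pgk1 promoter, chrX:106186850-106187099, plus strand: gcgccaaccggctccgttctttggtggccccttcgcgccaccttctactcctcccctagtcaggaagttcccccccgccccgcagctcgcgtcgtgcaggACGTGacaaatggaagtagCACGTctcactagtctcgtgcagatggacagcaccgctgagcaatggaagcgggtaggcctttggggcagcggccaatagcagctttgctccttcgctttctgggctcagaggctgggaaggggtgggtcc
Hk2 promoter, chr6:82774455-82774704, minus strand: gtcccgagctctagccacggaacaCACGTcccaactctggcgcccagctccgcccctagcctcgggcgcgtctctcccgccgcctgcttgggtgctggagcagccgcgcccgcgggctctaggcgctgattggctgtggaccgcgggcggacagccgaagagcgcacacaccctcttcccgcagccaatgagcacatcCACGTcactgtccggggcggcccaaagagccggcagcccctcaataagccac
Counted back from the base before the start as -1, the Ldha window has E-boxes beginning at -145 and -48, and a further core at -34. The Pgk1 window has the core at -150 and -131, and the Hk2 window at -226 and -52. Among the 10 members only Ldha had an E-box, in 1 of 15 member windows, against 6.02% of 32851 windows of the same length. The core was found for 5 of the 10 members, Aldoa, Hk2, Ldha, Pgam1 and Pgk1, against 18.49% of all 27025 genes, and in 6 of the 15 member windows, against 16.57% of all windows. Of these, 2 are overlapping Aldoa windows that hold the same site. Other forms of the hypoxia response core were not searched, so a member without a match here may hold one. A match describes letters only.

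Of the 22 probes, 19 were well above background in 1 channel or the other on all 3 arrays, and they cover all 10 genes. The Hk1 probes A_52_P9337 and A_52_P87141 were not well above background in either channel on any array. The Gpi1 probe A_52_P347412 was so in the cKO channel on 2 arrays and in the control channel on 0. Over the whole array 26429 of 41174 probes passed, the median spot signal was 1.80 to 2.80 times its local background, and 62.9% to 69.1% of spots were well above it. Arrays 2 and 3 shared a slide that array 1 did not, and each array had its own pools. No dyes were swapped, so a dye effect on a probe and the genotype cannot be told apart. The targeted gene, Arntl (Bmal1), gave scanner log2 ratios of 0.26, 0.10 and -0.28; the labels do not say which part the floxed allele removes, so this probe checks neither the deletion nor the labels. Luteal, granulosa and oocyte markers were well above background for 7 of 7, 5 of 5 and 6 of 6 genes, so the markers of an ovary were present.

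Each ratio below is log2 of cKO over control in 1 spot, averaged over the spots of a probe, so a value of 1 is a doubling in the cKO pool. It was taken in 2 ways. The scanner ratio is the deposited one, corrected by Agilent's software for local background, for trends across the slide and for the dyes. The loess ratio was made from the spot signals as scanned, by normexp background correction and loess. It is the one tested, except where a test is said to use the scanner ratios. Means are over 3 arrays, as mean ± SD (n = 3).

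No member gene was called. In the loess fit 0 of the 19 member probes had an adjusted p under 0.05 (limma, Benjamini-Hochberg over 26429 probes; the smallest was adjusted p = 0.279). Over the whole array 1 probe passed, 0.00378% of those tested, that of the cholesterol transporter Star (-4.09), named after its values were seen. At an unadjusted p under 0.05 stood 4 member probes, 1 each of Pfkp, Aldoa, Pgk1 and Ldha, against 11.6% of all probes. With the scanner ratios 0 member probes reached an unadjusted p of 0.05 in limma, against 5.32% of all probes, and 0.223% of all probes passed after adjustment. Since ovaries were pooled whole, fewer cells of a type and less RNA per cell cannot be told apart in any of these values.

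**Figure D1:**
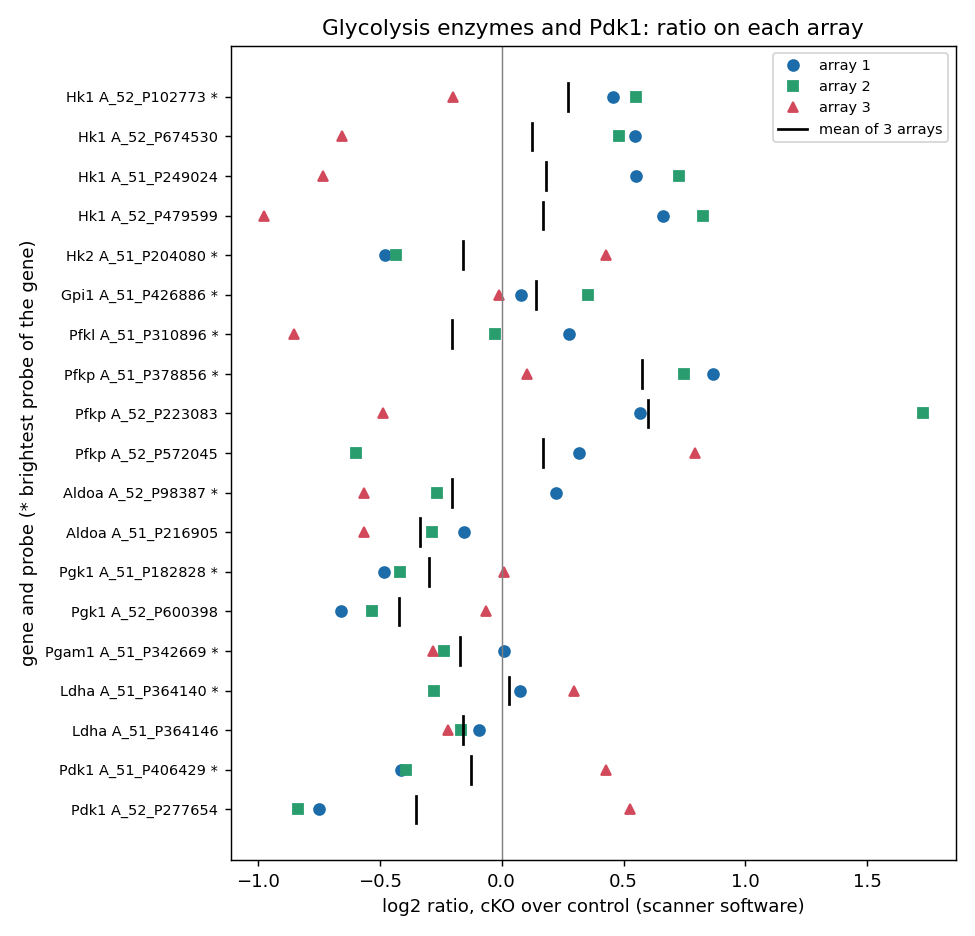
The scanner software's log2 ratio of cKO over control (horizontal axis) for the 19 member probes above background, 1 row per probe; symbols are arrays 1 to 3, the bar is their mean, and an asterisk marks the gene's brightest probe. For Hk1, Hk2 and Pdk1 array 3 stands on the other side of arrays 1 and 2, while the brightest Pfkp probe lies above 0 on all 3.

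By their brightest probes the hexokinases had opposite signs on each array. Array 3 was opposite to the sign shared by arrays 1 and 2 in 43% of all genes by the scanner and 36.1% by loess. Hk1, the housekeeping hexokinase, gave scanner ratios of 0.46, 0.55 and -0.20 on arrays 1 to 3 by its brightest probe, A_52_P102773. The loess ratios were 0.51, 0.57 and -0.21, a mean of 0.29 ± 0.43 (limma, 95% interval -0.24 to 0.82, adjusted p = 0.655). Arrays 1 and 2 were higher in the cKO pool and array 3 lower. The other 3 Hk1 probes were also above 0 on arrays 1 and 2 and below it on array 3. They were dim, with mean log2 intensities of 7.21, 6.89 and 6.72 against 11.25 for the brightest probe. Array 3 gave scanner ratios of -0.65, -0.73 and -0.97 there, against 0.48 to 0.83 on arrays 1 and 2. By loess array 3 gave -0.27, -0.44 and -0.52, and the means were 0.18, -0.02 and -0.03. These 4 probes read the same pools and are not replicates. Whether they read the same Hk1 transcripts was not checked.

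Hk2, the insulin-responsive and hypoxia-responsive hexokinase, was read by 1 probe. Its scanner ratios were -0.48, -0.43 and 0.43, so the cKO pool was lower on arrays 1 and 2 and higher on array 3. The loess ratios of -0.30, -0.30 and 0.48 had a mean of -0.04 ± 0.45 (limma, 95% interval -0.59 to 0.50, adjusted p = 0.966). Log2 channel levels of the Hk2 probe were 11.60, 11.77 and 12.17 in the cKO pools and 12.08, 12.21 and 11.74 in the control pools. The groups overlapped, and array 3 minus the mean of arrays 1 and 2 was 0.48 in the cKO channel and -0.40 in the control channel.

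Gpi1, the isomerase that makes fructose 6-phosphate, was spotted 10 times on each array. Its scanner ratios were 0.08, 0.35 and -0.01, with an SD among the 10 spots of 0.05, 0.05 and 0.07. The loess ratios averaged 0.10, 0.40 and -0.04, with spot SDs of 0.20, 0.17 and 0.22. Over the arrays the loess mean was 0.15 ± 0.22 (limma, adjusted p = 0.751). Array 2 was highest in both versions.

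Phosphofructokinase gave the highest member ratio. The platelet form Pfkp, by probe A_51_P378856, had scanner ratios of 0.87, 0.75 and 0.10, a mean of 0.57 ± 0.41, or 1.49-fold. The loess ratios were 0.88, 0.73 and 0.13, a mean of 0.58 ± 0.40 (limma, 95% interval 0.08 to 1.08, adjusted p = 0.381). All 3 arrays were above 0 in both versions, array 3 least. Log2 channel levels were 12.01, 11.60 and 11.41 in the cKO pools and 11.14, 10.85 and 11.31 in the control pools, so the groups did not overlap. Channel levels did not overlap for 2 of the 19 member probes, this one and Aldoa A_51_P216905, against 10.3% of all probes.

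The other Pfkp probes were dimmer and more mixed in sign. Probe A_52_P223083 gave scanner ratios of 0.57, 1.73 and -0.49. Probe A_52_P572045 gave 0.32, -0.60 and 0.79. Neither kept 1 sign over the arrays, and their loess means were 0.42 ± 0.72 and 0.01 ± 0.23. Their scanner means were 0.60 ± 1.11 and 0.17 ± 0.71, against 0.57 ± 0.41 for A_51_P378856.

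Pfkl, the liver form, had scanner ratios of 0.28, -0.03 and -0.85 and loess ratios of 0.59, 0.25 and -0.50. The 2 versions differ in the sign of the mean, -0.20 ± 0.58 by the scanner and 0.12 ± 0.56 by loess (limma, adjusted p = 0.909). Array 3 was lowest in both. In the channel levels of Pfkl, array 3 minus the mean of arrays 1 and 2 was 0.74 in the control and -0.24 in the cKO channel.

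Aldoa, the main aldolase of muscle and most other tissues, had scanner ratios of -0.15, -0.28 and -0.56 by probe A_51_P216905, a mean of -0.33 ± 0.21. The cKO pool was lower on every array, and the levels, 16.69 to 16.98 in cKO and 17.14 to 17.25 in control pools, did not overlap. The loess ratios of this probe were 0.05, -0.08 and -0.45 (-0.16 ± 0.26; limma, adjusted p = 0.752). The brightest probe, A_52_P98387, gave scanner ratios of 0.22, -0.26 and -0.57, and its control spot was saturated on array 1. Its loess mean of -0.70 ± 0.41 (limma, adjusted p = 0.336) is set against a scanner mean of -0.20 ± 0.40. The overlapping probes thus lie closer to each other by the scanner than by loess.

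Pgk1, which recovers the first ATP, was lower in the cKO pools of arrays 1 and 2. By its 10 spots of probe A_51_P182828 the scanner ratios were -0.48, -0.42 and 0.01. Spots ran from -0.52 to -0.42 on array 1, from -0.46 to -0.38 on array 2 and from -0.04 to 0.04 on array 3. By the scanner the spots of array 3 did not overlap those of arrays 1 and 2; spots share 1 pair of pools, so their scatter measures spotting and scanning and not animals. The loess ratios were -0.60, -0.49 and -0.10, a mean of -0.39 ± 0.27 (limma, 95% interval -0.79 to 0.003, adjusted p = 0.436), with spot SDs of 0.28, 0.20 and 0.22. By loess the spots of array 3, from -0.40 to 0.29, overlapped those of arrays 1 and 2. Channel levels of Pgk1 overlapped: 14.20, 14.49 and 14.91 in cKO and 14.68, 14.91 and 14.91 in control pools.

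The overlapping Pgk1 probe A_52_P600398 gave scanner ratios of -0.66, -0.53 and -0.06. Its loess ratios were -1.11, -0.83 and -0.44, a mean of -0.79 ± 0.33 (limma, 95% interval -1.24 to -0.35). With an adjusted p of 0.279 this was the smallest of any member, and the cKO pool was lower on all 3 arrays. The scanner mean of the same spots was -0.42 ± 0.31.

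**Figure D2:**
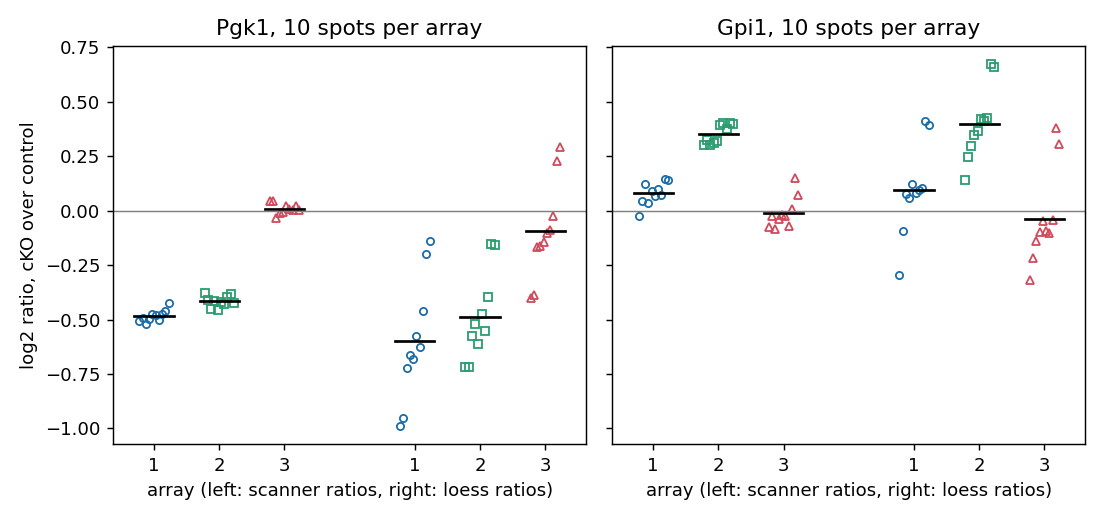
The log2 ratio of cKO over control (vertical axis) in each of the 10 spots of the Pgk1 and Gpi1 probes on arrays 1 to 3, by the scanner software and by loess; open symbols are spots and bars their mean. Pgk1 scanner spots lie within -0.52 to -0.38 on arrays 1 and 2 and around 0 on array 3, and loess spots of the same probe scatter more widely.

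The wider scatter of loess ratios was general. Over 245 probes spotted more than once the median SD among spots was 0.19, 0.14 and 0.18 by loess and 0.06, 0.07 and 0.07 by the scanner on arrays 1 to 3. Among the 26 of mean log2 intensity above 12 it was 0.28, 0.22 and 0.27 against 0.04, 0.04 and 0.05. Most member probes have 1 spot per array, so a loess ratio of a bright member such as Aldoa, Ldha or Pgam1 carries this scatter.

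Pgam1, the mutase before enolase, had scanner ratios of 0.01, -0.24 and -0.28 and loess ratios of 0.07, -0.16 and -0.26. The loess mean was -0.12 ± 0.17 (limma, 95% interval -0.46 to 0.22, adjusted p = 0.801). Array 1 was near 0 and the others lower.

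Ldha, the lactate dehydrogenase subunit with the E-boxes shown, was read by a pair of probes. The brighter, A_51_P364140, gave scanner ratios of 0.07, -0.28 and 0.30, and the dimmer, A_51_P364146, gave -0.09, -0.17 and -0.22. The dimmer probe was lower in the cKO pool on all 3 arrays by a small amount, and the brighter had no single sign. By loess they went apart, 0.23 ± 0.27 (limma, adjusted p = 0.633) against -0.45 ± 0.07 (limma, adjusted p = 0.311). The scanner means were 0.03 ± 0.29 and -0.16 ± 0.06. Channel levels of Ldha A_51_P364146 overlapped, from 14.43 to 14.75 in cKO pools and from 14.52 to 14.97 in control pools.

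Pdk1 was read by a pair of probes. Its brighter probe, A_51_P406429, gave scanner ratios of -0.41, -0.39 and 0.43, and A_52_P277654 gave -0.75, -0.83 and 0.53. In both the cKO pool was lower on arrays 1 and 2 and higher on array 3. By the scanner, array 3 was opposite to the sign shared by arrays 1 and 2, in either direction, in 43% of all genes. The loess means were -0.14 ± 0.39 (limma, 95% interval -0.63 to 0.36, adjusted p = 0.847) and -0.02 ± 0.63 (limma, adjusted p = 0.990). In channel levels, A_51_P406429 read 9.62, 9.64 and 10.38 in the cKO pools and 10.03, 10.03 and 9.96 in the control pools. The shift lay in the cKO channel for this probe, 0.75 against -0.08 for array 3 minus the mean of arrays 1 and 2, and in both channels for A_52_P277654, 0.50 against -0.82.

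**Figure D3:**
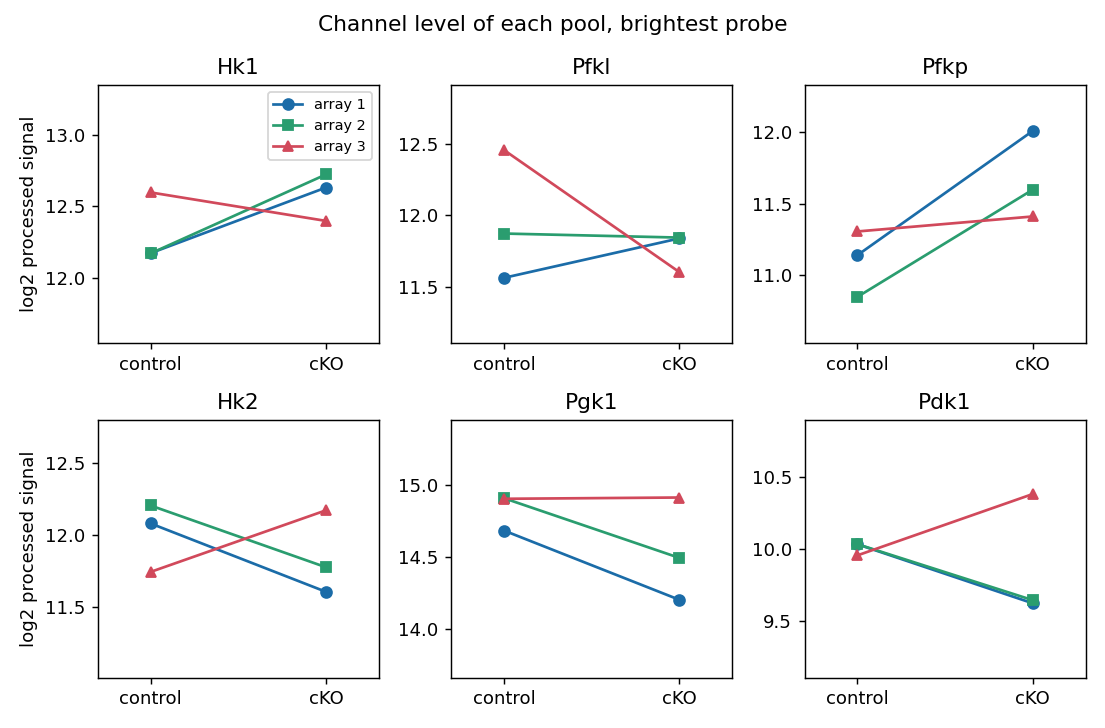
Log2 processed signal (vertical axis, the same span in each panel) of the control and cKO pools for the brightest probe of 6 members; lines join the pools of 1 array. The lines of arrays 1 and 2 have the same slope sign in each panel but Pfkl, and that of array 3 runs the other way for Hk1, Hk2 and Pdk1 and is near flat for Pgk1 and Pfkp.

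Over the 10 members, each by its brightest probe, the median of the scanner means was -0.14, against -0.02 over all 17852 genes measured on every array, and the loess median was 0.04. The median was 0.08, -0.25 and -0.001 on arrays 1 to 3 by the scanner, and 0.09, -0.11 and -0.07 by loess. The count of members with a mean above 0 was 5 by loess, 4 by the scanner and 7 with median centring, so the set had no single direction. The same sign on all 3 arrays was found for 3 members by loess, against 35.2% of all genes, and for 1, Pfkp, by the scanner, against 24.2%. Array 3 had the sign opposite to that shared by arrays 1 and 2 in 5 members by loess, against 36.1% of all genes, and in 5 by the scanner, against 43%. The median SD over arrays was 0.40 for the members and 0.28 for all genes by loess, and 0.40 and 0.41 by the scanner.

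The number of members at an unadjusted p under 0.05 depended on the arrays used. Without array 3, 12 of the 19 member probes had an unadjusted p under 0.05 in the loess fit, against 25.8% of all probes, with a smallest adjusted member p of 0.0856. Without array 1, which leaves the slide of arrays 2 and 3, it was 2 member probes, against 3.81% of all, and without array 2 also 2, against 7.27%. Within that slide the loess means were 0.43 for Pfkp A_51_P378856, -0.89 for Aldoa A_52_P98387, -0.64 for Pgk1 A_52_P600398 and -0.46 for Ldha A_51_P364146. They share arrays with the fit that set them apart, so their direction there is no separate support. Of the member probes not so set apart, Hk2 (0.090), Pfkl (-0.12), Pfkp A_52_P572045 (-0.014) and Pdk1 A_52_P277654 (0.13) turned sign within that slide. The others kept the sign of the full fit, among them Gpi1, Pgam1 and every Hk1 probe above background.

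**Figure D4:**
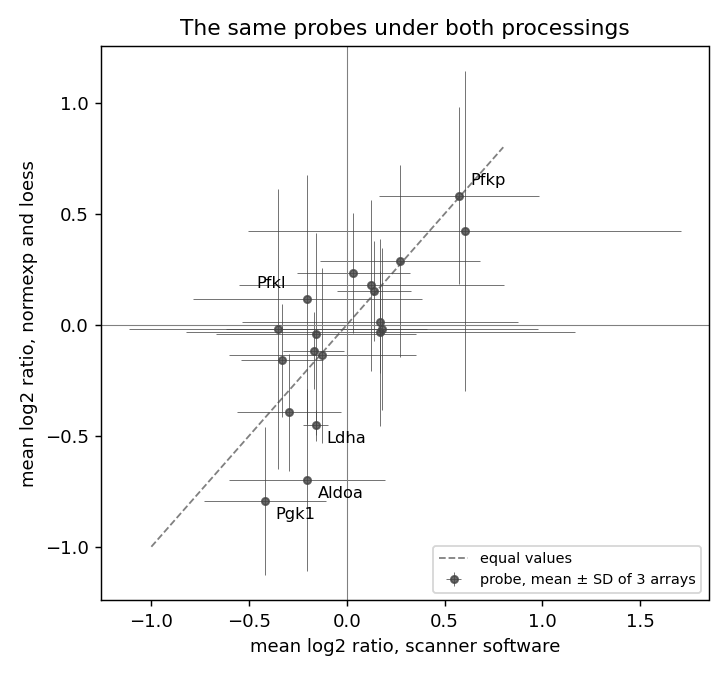
Mean log2 ratio of cKO over control for the 19 member probes, by the scanner software (horizontal) and by normexp and loess (vertical), with SD over 3 arrays as bars and a dashed line of equal values. The labelled Aldoa, Ldha and Pgk1 probes lie below the line, Pfkp lies on it, and Pfkl lies above 0 by loess and below it by the scanner.

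The other glycolysis enzymes were read from a list of 15 genes, of which 13 were above background. By loess 0 passed the adjusted threshold. At an unadjusted p under 0.05, 1 was higher (Eno3) and 3 lower, among them Aldoc and the triose-phosphate isomerase Tpi1, against 6.31% of all genes higher and 6.88% lower. With the scanner ratios it was 0 higher and 2 lower, against 523 and 530 of all 17852 genes. Their median was -0.08 by loess and -0.20 by the scanner, and by array it was -0.03, -0.08 and -0.67 by the scanner, lowest on array 3. Highest by the mean was Eno3, the muscle enolase, at 0.38 ± 0.23 (limma, adjusted p = 0.423). Lowest was the brain aldolase Aldoc, with loess ratios of -0.93, -1.86 and -1.40 (-1.40 ± 0.47; limma, adjusted p = 0.206), although its other probe gave a mean of -0.06.

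Genes that decide the fate of pyruvate numbered 14 measured of 15, and 0 passed. At an unadjusted p under 0.05, 1 was higher and 2 lower, against 6.31% of all genes higher and 6.88% lower. Highest was the mitochondrial pyruvate carrier subunit Mpc2 (0.33 ± 0.06; limma, adjusted p = 0.399), which was 0.04 ± 0.05 by the scanner, and lowest was Pcx, pyruvate carboxylase (-0.69 ± 0.22; limma, adjusted p = 0.274), which was -0.40 ± 0.24 by the scanner. With the scanner ratios 0 of the list stood at an unadjusted p under 0.05. The list's scanner median was -0.24, -0.41 and 0.22 on arrays 1 to 3. It was below 0 on arrays 1 and 2 and above it on array 3.

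In the branches around the pathway 0 genes passed. The enzymes that make or remove fructose 2,6-bisphosphate, the activator of phosphofructokinase, ran from Pfkfb4 (-0.56 ± 0.23; limma, adjusted p = 0.313) to Pfkfb2 (0.16 ± 0.25), with 1 of 5 lower at an unadjusted p under 0.05. Gluconeogenesis ran from Pck2 (-0.51 ± 0.25; limma, adjusted p = 0.350) to G6pc (0.07 ± 0.15), with 1 of 4 lower. Glucose and lactate transport ran from Slc16a3 (-0.35 ± 0.18; limma, adjusted p = 0.425), the lactate exporter, to Slc16a1 (0.24 ± 0.61), with 1 of 5 lower. The pentose phosphate branch ran from Pgd (-0.67 ± 0.27; limma, adjusted p = 0.291; other probe 0.32) to G6pdx (0.27 ± 0.19), with 2 of 7 lower. In each of these 4 lists 0 genes were higher at that p. Over all genes 6.31% were higher and 6.88% lower. With the scanner ratios 0 genes of the 4 lists stood at an unadjusted p under 0.05 in either direction. The scanner means were nearer 0: -0.38 for Pfkfb4, -0.17 for Pck2, -0.05 for Slc16a3 and -0.26 for Pgd.

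Other genes that respond to hypoxia, 15 measured of 16, held 4 genes higher and 1 lower at an unadjusted p under 0.05 by loess. Over all genes 6.31% were higher and 6.88% lower at that p. By the scanner it was 3 higher and 1 lower, against 523 and 530 of all 17852 genes. Adm, the vasodilator peptide adrenomedullin, had scanner ratios of 2.10, 2.20 and 2.24 and loess ratios of 2.19, 2.14 and 2.24. Egln3, an oxygen-sensing prolyl hydroxylase, had scanner ratios of 2.47, 2.11 and 2.61 and loess ratios of 1.62, 1.48 and 1.84. Both were higher in the cKO pool on every array. In limma they passed with the scanner ratios (adjusted p = 0.031 for each) but not in the loess fit (adjusted p = 0.054 and 0.062). Lowest of this list was Bnip3, a mitochondrial autophagy receptor (-0.67 ± 0.27; limma, adjusted p = 0.288). The list's median was 0.06 by loess and 0.09 by the scanner, and the highest scanner mean of a member probe was 0.60, that of Pfkp A_52_P223083.

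**Figure D5:**
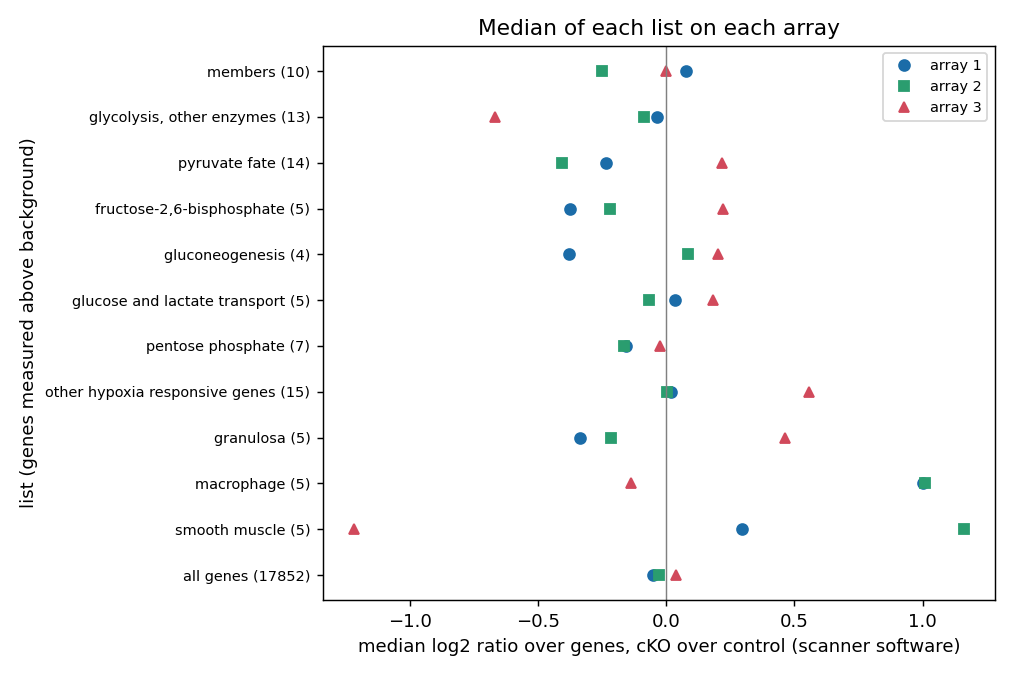
Median scanner log2 ratio of cKO over control (horizontal axis) over the genes of each list above background, their number in brackets, on arrays 1 to 3. Smooth muscle and macrophage markers lie above 0 on arrays 1 and 2 and below it on array 3, granulosa markers the other way, and the members near 0 on arrays 1 and 3.

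Markers of cell types also differed between the arrays. Each summed level adds the signals of a list, so its brightest genes carry it. The 5 smooth muscle genes, all above background, had a summed level that differed by 0.56, 1.23 and -1.17 between the cKO and control pools of arrays 1 to 3 (log2; 15.65 to 17.14 in cKO and 15.91 to 16.81 in control pools). Array 3 was opposite in 5 of 5 by loess, against 36.1% of all genes. The 5 macrophage genes, all above background, had differences of 2.45, 1.25 and 0.47 (16.12 to 17.30 in cKO, 14.85 to 15.65 in control pools). Lyz2, at 2.62, 1.31 and 0.58 by the scanner, carried this sum, and the other 4 genes were below 0 on array 3.

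The 5 granulosa genes, all above background, had differences of -0.70, -0.17 and 0.82 (15.25 to 16.81 in cKO, 15.95 to 16.10 in control pools). Inhba, at -0.84, -0.23 and 0.80 by the scanner, carried this sum. By loess 3 of the 5 were below 0 on arrays 1 and 2 and above it on array 3. Among these 3, Cyp19a1 did not keep this pattern by the scanner, at -0.14, 0.24 and 2.25. Array 3 was opposite, in either direction, in 36.1% of all genes. Amh (0.23, -0.45 and -1.28 by the scanner) ran the other way, and Fshr was below 0 on all 3 arrays. The oviduct epithelium genes, 2 of 3 above background, had the widest differences of the marker lists, 1.41, -4.14 and 0.74 (8.95 to 10.98 in cKO, 8.23 to 13.09 in control pools). The 4 surface epithelium genes had 0.97, -0.49 and -0.80 (15.43 to 16.59 in cKO, 15.62 to 16.40 in control pools). The summed level of the 7 luteal genes differed by 0.20, -0.46 and -0.71. This list holds Star, and its genes went both ways. Scanner means were -4.09 for Star, -1.26 for Lhcgr, 0.96 for Ptgfr and 1.71 for Akr1c18. The summed level of the 5 endothelial genes differed by 0.02, 0.06 and -0.07, although single genes ranged more widely, Eng from -0.16 to 0.69. The part of these cell types in the members' ratios was not tested.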

How the data were processed

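The members and gene lists were chosen with earlier results of these data known. Per the file headers the authors used Agilent Feature Extraction 9.1.3.1. Its spot and background intensity values were deposited without correction. Processed signals and log10 ratios of red over green in the same deposited files had been background-subtracted, detrended and dye-normalised. The series' value table holds the same log10 ratios (largest difference 0). They were turned into log2 of cKO over control. Loess ratios came from mean signals by normexp with offset 50, which pulls dim probes toward 0, and loess within arrays, in limma 3.58.1 under R 4.3.3. Spots flagged by the scanner (13, 4 and 0) were left out, and spots were averaged per probe. Probes well above background in 1 channel on all 3 arrays were kept. limma tested means against 0, two-sided, with Benjamini-Hochberg adjustment and a threshold of 0.05. The script was tested on simulated data. Channel levels are processed signals, scaled between arrays (Aquantile).

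Named were every member probe and, of each other list, called genes and otherwise the highest and lowest by brightest kept probe; Adm and Egln3 were called with the scanner ratios, and Star was named after its values were seen. A gene of the lists is not reported here by name. List genes were matched through RefSeq names of GRCm38.p6: 24844 probes by accession, 6045 by symbol and 1810 by synonym, while 8475 kept the name in the file. Probes of Aldoa, Pgk1, Pgam1 and Ldha may also bind RNA of near-identical gene copies, and coordinates of probes were not used here. The number after the Cre name in the labels of arrays 2 and 3 follows the array's number, and those arrays were grouped by title and design text. The p-values reflect the spread of a probe's ratios over 3 arrays, each pairing a cKO pool with a control pool. In limma that spread is also drawn toward the spread of the other probes. They do not measure the spread of pools within a genotype taken alone, nor that of single animals.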

Additional observations from a re-analysis of the deposited data

How the results depend on the processing

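The number of member probes called was 0 under each of the 11 alternatives. Each ratio pairs both genotypes in a spot, so the tests were already paired within arrays and no separate paired alternative was run. Over the whole array 1 probe was called, against 59 with the scanner ratios, 50 with both channels well above background, 74 with an offset of 10 and 31 with 1 probe per gene. It was 0 with median centring, scaled arrays, no filter or the slide as a block (3949, 3192, 4452 and 1499 at an unadjusted p under 0.05 in limma), and 0 to 21 with 1 array left out. Of the other lists, 2 genes, Adm and Egln3, were called with the scanner ratios, with both channels above background and with offset 10, 1 (Adm) with 1 probe per gene, and 0 to 1 with 1 array left out. The members' median of 0.04 became -0.14 with the scanner ratios and 0.20 with median centring, which moved the median of all genes to 0.12; it was 0.04 in each fit with 1 array left out.

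Of 200 member probe values recomputed, 180 kept the direction and 20 turned. With the scanner ratios Hk1 A_51_P249024 (0.18), Hk1 A_52_P479599 (0.17) and Pfkl (-0.20) turned. With median centring Hk1 A_51_P249024 (0.065), Hk1 A_52_P479599 (0.0072), Hk2 (0.18), Pdk1 A_51_P406429 (0.086) and Pdk1 A_52_P277654 (0.19) turned. Hk1 A_51_P249024 also turned with scaled arrays (0.0083) and the slide as a block (0.021), and Hk1 A_52_P479599 with that block (0.017). Some probes turned in at least 1 fit with 1 array left out, and their range over all such fits is given. It was -0.15 to 0.19 for Hk1 A_51_P249024, -0.17 to 0.21 for Hk1 A_52_P479599 and -0.30 to 0.090 for Hk2. For Pfkl it was -0.12 to 0.42, for Pfkp A_52_P572045 -0.089 to 0.14 and for Pdk1 A_52_P277654 -0.38 to 0.19. The cause of these turns was not tested. The number of arrays limits precision, and dim probes are limited by signal over background.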
